A study of Mus musculus with 6 samples.

Results

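Inflammatory cytokines are the secreted signals, and here also 1 enzyme, through which macrophages, dendritic cells, mast cells, stromal cells and tumour cells start and sustain inflammation. A fixed list of 10 genes was read from the 55536 genes of the count table by symbol, and each symbol matched 1 Ensembl gene. The list holds 4 genes of the interleukin-1 (IL-1) family (Il1a, Il1b, Il1rn and Il18), the cytokine genes Tnf, Il6 and Il12b, the prostaglandin synthase gene Ptgs2, and the colony-stimulating factor genes Csf1 and Csf2. All 10 passed the filter on low counts.

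The 6 libraries came from liver tumours of male C3H mice that were 6 to 8 weeks old when 1000000 HCA-1 cells were placed under the capsule of the liver. HCA-1 is an established line of mouse hepatocellular carcinoma. The Control group (replicates 3, 4 and 5) was untreated. The TSDP group (replicates 1, 2 and 5) received, by vein, nanoparticles loaded with DNIC, a nitric oxide donor, and with sorafenib, a kinase inhibitor, in 6 doses from day 10 to day 23. All tumours were taken on day 24. The mice had no stated gene change, every tumour grew from the same line, and whether Control mice were given an empty carrier is not stated. The labels give C3H without a substrain. One substrain, C3H/HeJ, carries a defective Tlr4, the receptor for bacterial lipopolysaccharide, so whether these hosts can respond through it is not known from the labels.

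As background, IL-1 alpha and IL-1 beta bind the same receptor and activate NF-kB, the transcription factor that in turn drives many cytokine genes. IL-1 receptor antagonist occupies that receptor without signalling. IL-1 beta and IL-18 are made as inactive precursors that caspase-1 cuts within an inflammasome, so their mRNA is not a measure of the active protein. In liver tumours the macrophages are a main source of IL-1 beta, TNF and IL-6, and many of these mRNAs carry AU-rich elements (copies of ATTTA in the 3′ untranslated region) to which decay proteins bind.

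Total counts ran from 32130808 to 38953397 per library, and the lowest of the cytokine genes, Il6 and Il12b, rest on 25 to 39 and on 7 to 78 reads per library. CPM below is the count per 1000000 reads of the scaled library. The summed level of 12 hepatocyte markers was 105.2, 22232 and 3777 CPM in Control 3, 4 and 5, against 31247, 59834 and 19710 CPM in TSDP 1, 2 and 5, with Control 3 far below the rest and none of the 12 at 0 in any library. Of the tumour markers, the keratins Krt8 and Krt18 lay between 431 and 725 CPM and Afp, alpha-fetoprotein, between 3.27 and 3.68 CPM in Control and between 4.24 and 9.20 CPM in TSDP. Epcam ran from 0.432 to 13.5 CPM and Gpc3 from 0.680 to 4.83 CPM, both lowest in Control 3, while Igf2 and Dlk1 never exceeded 0.0613 CPM. Monocyte and macrophage markers (11 genes) summed to 1390.2 to 2204 CPM in Control and 2014 to 2671 CPM in TSDP, and neutrophil markers (9 genes) to 26.6 to 48.7 and 24.9 to 60.5 CPM. Of the latter, Mmp9 made up 29.01 CPM in TSDP 2, while S100a8 was at 3.06 to 9.30 CPM in Control and 1.78 to 2.46 CPM in TSDP, without overlap (edgeR adjusted p = 0.326, DESeq2 adjusted p = 0.0205). S100a8 was the only 1 of the 7 tested neutrophil markers without overlap. Of these 7, 3 had positive and 4 negative log2 fold changes (TSDP over Control), with a median of -0.027. The ranges in Control and TSDP were 35.8 to 68.4 and 74.2 to 222 CPM for 4 Kupffer cell markers, 34.4 to 71.5 and 72.4 to 89.1 CPM for 7 dendritic cell markers, 19.9 to 60.05 and 65.1 to 72.4 CPM for 6 T cell markers, and 0.680 to 1.20 and 2.33 to 5.52 CPM for 4 B cell markers. They were 126 to 199.6 and 197 to 316 CPM for 4 endothelial markers and 3005 to 6161 and 4198 to 8045 CPM for 6 fibroblast markers. In such bulk samples a change in the number of cells of a type and a change in RNA per cell cannot be told apart.

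Sequences of the cytokine genes show which of the regulatory letters above they carry. RefSeq promoters (build GRCm38.p6, from a C57BL/6J genome and not C3H) were found for all 10 genes, 12 promoters in all because Il1rn has 3. In the 250 bases before the start site, the NF-kB consensus decamer was searched on both strands and found in 2 of the 12, those of Il6 and Csf1, against 3.9% of 32851 promoters. The decamer was GGGRNWYYCC, with R for A or G, W for A or T, Y for C or T and N for any base. Sites further upstream or departing from this pattern were not searched, so the other genes may carry such sites. The AP-1 motif TGANTCA was in 3 of 12 (Il1a, 1 promoter of Il1rn, and Il6) against 6.75%, and TATAAA on either strand in 4 of 12 (Il1a, Il1b, Tnf and Il18) against 12.4%. Matches of different motifs did not overlap in these promoters. The promoters with the NF-kB decamer are shown because these genes lie at the lowest and highest ends of the level range given below, and Il1b because it carries a TATA box and is the cytokine on which much of the later description turns. Capitals mark the NF-kB decamer, 44 bases before the start in Il6 and 154 bases before it in Csf1, and the TATAAA of Il1b, 31 bases before the start. Each window ends at the base before the RefSeq start of the gene's first exon. The intervals are chr5:30012864-30013113 on the plus strand, chr3:107760470-107760719 on the minus strand and chr2:129371140-129371389 on the minus strand.
Il6: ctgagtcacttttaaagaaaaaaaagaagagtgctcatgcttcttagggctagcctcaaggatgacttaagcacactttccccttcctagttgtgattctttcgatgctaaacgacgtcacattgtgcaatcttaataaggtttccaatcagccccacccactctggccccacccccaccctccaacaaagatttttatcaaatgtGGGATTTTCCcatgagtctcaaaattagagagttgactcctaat
Csf1: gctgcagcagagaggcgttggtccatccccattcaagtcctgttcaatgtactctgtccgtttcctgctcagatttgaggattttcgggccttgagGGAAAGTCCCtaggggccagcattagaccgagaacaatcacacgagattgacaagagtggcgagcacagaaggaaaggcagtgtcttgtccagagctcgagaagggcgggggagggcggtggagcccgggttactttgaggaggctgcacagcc
Il1b: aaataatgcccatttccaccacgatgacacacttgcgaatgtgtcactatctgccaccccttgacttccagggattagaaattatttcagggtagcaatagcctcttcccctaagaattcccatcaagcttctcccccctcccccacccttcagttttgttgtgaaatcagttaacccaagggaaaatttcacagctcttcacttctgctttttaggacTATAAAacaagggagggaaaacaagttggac

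The 3′ untranslated regions (the longest among the protein-coding transcripts of each gene in GENCODE M21) held at least 1 ATTTA pentamer in 9 of 10 cytokine genes, against 65.2% of 21020 genes, and Il1rn had 0 in 1864 bases. Per kilobase, Csf2 had 28.4 pentamers, Tnf 10.5, Il1b 8.71, Il12b 7.53, Il6 6.00, Ptgs2 5.73, Il18 2.99, Il1a 2.72 and Csf1 1.89, and the median over genes with at least 100 bases was 1.35. The nonamer TTATTTATT occurred 5 times in Tnf, 4 times in Csf2 and 1 time in Ptgs2, and 7.66% of all genes held it. The densest stretch of 30 bases is shown for the 5 genes that hold 3 or more pentamers in it, with the pentamers in capitals. A match is a property of the reference sequence and does not show that the element acts in these tumours.
Tnf: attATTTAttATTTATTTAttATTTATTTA
Csf2: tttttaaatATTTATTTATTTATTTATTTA
Ptgs2: ccatATTTATTTATTTAtgtgaagaATTTA
Il12b: ATTTAagtaATTTAtgtATTTAttaATTTA
Il1b: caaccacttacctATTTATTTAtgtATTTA

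Levels corrected for gene length, as TPM computed from the counts, separated the 10 genes into a higher set of 7 and a lower set of 3. Over the 6 libraries Csf1 averaged 86.9 TPM, Ptgs2 78.3, Il1b 64.9, Il1rn 31.3, Il18 18.5, Csf2 15.7 and Il1a 13.1 TPM, while Tnf averaged 3.23, Il12b 2.54 and Il6 1.24 TPM. Neighbours in this order overlapped across libraries, except that the lowest Il1a library (5.58 TPM) was above the highest Tnf library (3.71 TPM). The order is that of mRNA and not of protein.

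**Figure D1:**
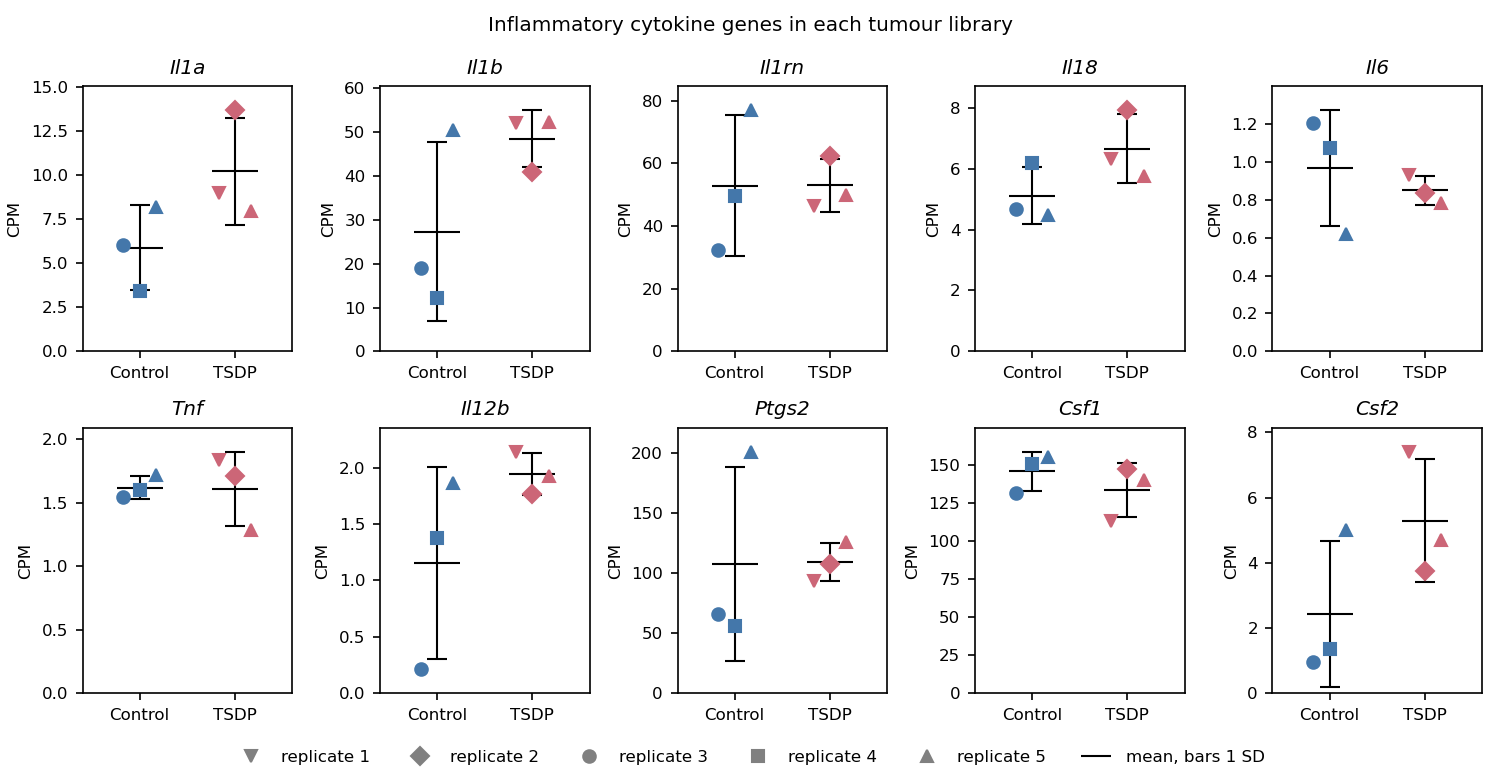
CPM (vertical axis, linear from 0) of each of the 10 cytokine genes in the 3 Control (blue) and 3 TSDP (red) tumour libraries, marker shape giving the replicate, with group mean and 1 SD. Control 5 is the highest library for Il1rn, Ptgs2 and Csf1 and lies within the TSDP range for Il1b, Il12b and Csf2.

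Across the 10 genes, Csf2, Il1b, Il1a and Il12b had the largest log2 fold changes (TSDP over Control, 1.11, 0.83, 0.79 and 0.74), Tnf, Ptgs2, Il1rn and Csf1 lay within 0.13 of no change, and no gene passed the test. By edgeR's quasi-likelihood test, with Benjamini-Hochberg adjustment and a threshold of 0.05, 0 of 10 passed, as did 0% of the 17423 genes tested. At an unadjusted p under 0.05 it was 0 of 10, against 13.4% of all genes tested. limma-voom also called 0 of 10, with 0 at an unadjusted p under 0.05, where 0% and 15.2% of all genes passed. DESeq2 called 0 of 10 where it called 3.38% of genes, with 1 of 10 (Il1a) at an unadjusted p under 0.05, where 8.3% of genes were. In 0 of 10 genes did the 3 TSDP values lie wholly outside the 3 Control values, against 21.8% of all genes tested (13% higher and 8.76% lower in TSDP). Of the 10 log2 fold changes 7 were positive, against 47.3% of all genes, and their median was 0.20, beside -0.022 over all genes tested. The 7 include Il1rn and Ptgs2, which lie next to 0, and 5 were positive with upper-quartile factors, with library totals alone, with the hepatocyte covariate described next, and without Control 3 or Control 4. Replicates are known as separate samples from their titles alone, so the p-values reflect only how far these 6 samples spread, which may in part be technical. With the mean log2 CPM of the 12 hepatocyte markers as a covariate, the log2 fold changes were 0.95 for Il1a, 0.78 for Il1b, 0.50 for Csf2, 0.15 for Il18, -0.22 for Ptgs2, -0.46 for Il12b and -0.51 for Il1rn, and 0 of 10 passed.

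The genes of the IL-1 family differed among themselves. Il1b (ENSMUSG00000027398), the main secreted IL-1, was counted at 18.9, 12.3 and 50.5 CPM in Control 3, 4 and 5, against 52.1, 41.0 and 52.4 CPM in TSDP 1, 2 and 5. The TSDP tumours were all high and close together, and Control 5 was as high as they were, while Control 3 and Control 4 were low. The means were 27.3 CPM ± 20.4 and 48.5 CPM ± 6.50 (SD, n = 3 each), and the log2 fold change was 0.83 ± 0.50 (SE), with a 95% interval of -0.39 to 2.05 and an edgeR adjusted p of 0.496. Without Control 5, the highest Control library, the log2 fold change was 1.62 (edgeR adjusted p = 0.591, unadjusted p = 0.000925). Without Control 3 it was 0.61, and without Control 4 it was 0.48.

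Il1a (ENSMUSG00000027399), which encodes the IL-1 that is active as a precursor and can be released by dying cells, had 6.05, 3.40 and 8.18 CPM in Control 3, 4 and 5, against 8.96, 13.7 and 7.95 CPM in TSDP 1, 2 and 5. The groups overlapped only through Control 5 and TSDP 5. The log2 fold change, 0.79 ± 0.37 (SE, 95% interval -0.11 to 1.69, edgeR adjusted p = 0.412), had the smallest p among the 10 genes, at rank 3152 of all genes tested.

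Il1rn (ENSMUSG00000026981), the IL-1 receptor antagonist, had 32.2, 49.5 and 76.9 CPM in Control 3, 4 and 5, against 46.3, 62.4 and 49.97 CPM in TSDP 1, 2 and 5. The Control tumours spanned the whole range and the TSDP tumours lay inside it. Means were 52.9 CPM ± 22.6 and 52.9 CPM ± 8.45 (SD, n = 3 each). The log2 fold change was 0.0012 ± 0.32 (SE), edgeR giving an adjusted p of 0.999, and its 95% interval of -0.76 to 0.76 leaves room for a change of either sign. Il18 (ENSMUSG00000039217), an inducer of interferon gamma, had 4.66, 6.19 and 4.47 CPM in the Control tumours against 6.30, 7.92 and 5.75 CPM in the TSDP tumours. Only Control 4 and TSDP 5 were out of order, and the log2 fold change was 0.38 ± 0.22 (SE, edgeR adjusted p = 0.483).

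The balance of antagonist to ligand was read within each library, where library scaling cancels. There were 1.70, 4.02 and 1.52 Il1rn reads per Il1b read in Control 3, 4 and 5, against 0.889, 1.52 and 0.953 in TSDP 1, 2 and 5. TSDP 1 and TSDP 5 were thus the libraries with more Il1b than Il1rn reads, Control 4 stood highest, and Control 5 and TSDP 2 were level to 3 digits. Il18bp, the secreted protein that neutralises IL-18, gave 2.53, 6.47 and 5.91 reads per Il18 read in Control 3, 4 and 5, against 4.23, 6.43 and 5.01 in TSDP 1, 2 and 5, and here the groups overlapped fully. Neither ratio is corrected for gene length, and neither was tested. Il1rn is the longer gene (5.535 against 1.907 kilobases of exons). Corrected for length, Il1rn exceeded Il1b only in Control 4, at 28.9 against 20.9 TPM.

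**Figure D2:**
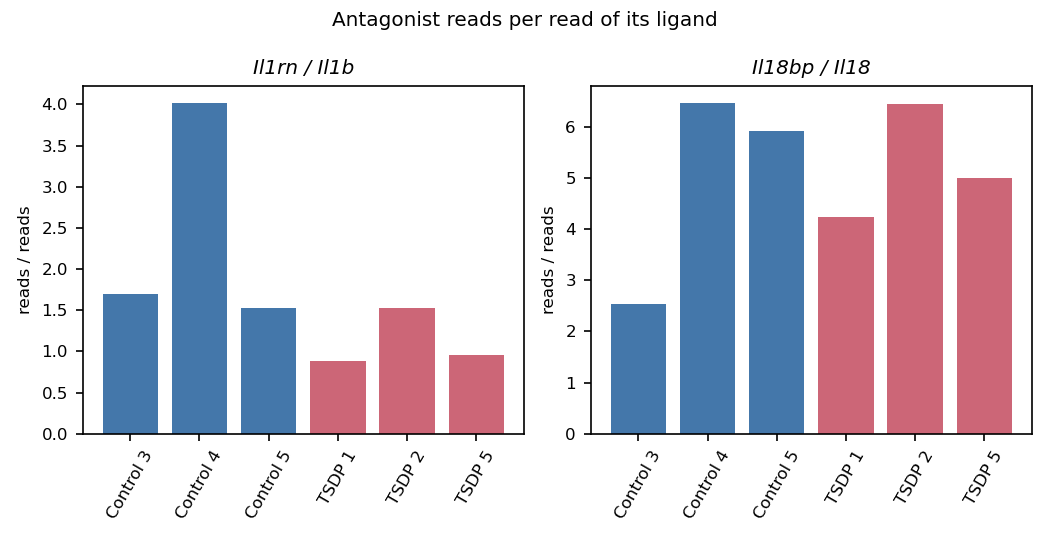
Reads of Il1rn per read of Il1b (left) and of Il18bp per read of Il18 (right) in each library, Control in blue and TSDP in red, vertical axes linear from 0. Il1rn per Il1b runs from 1.52 to 4.02 in Control and from 0.889 to 1.52 in TSDP. For it Control 5 and TSDP 2 are level at 1.52, and Il18bp per Il18 overlaps between the groups.

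Tnf, Il6 and Il12b had the lowest levels, and they differed in which libraries were high. Tnf (ENSMUSG00000024401), which encodes tumour necrosis factor, had 1.54, 1.59 and 1.72 CPM in Control 3, 4 and 5, against 1.83, 1.70 and 1.28 CPM in TSDP 1, 2 and 5. All tumours lay within 1.43-fold of each other, and its log2 fold change was -0.0097 ± 0.25 (SE, 95% interval -0.61 to 0.59, edgeR adjusted p = 0.989). Il6 (ENSMUSG00000025746), the gp130 cytokine that induces acute-phase proteins in hepatocytes, was at the floor of the list with 39, 35 and 25 reads (1.20, 1.07 and 0.621 CPM) in Control 3, 4 and 5, against 34, 29 and 28 reads (0.931, 0.838 and 0.781 CPM) in TSDP 1, 2 and 5. Control 5, the highest library for Il1rn, Ptgs2 and Csf1, was the lowest for Il6. Its log2 fold change was -0.18 ± 0.33 (SE, edgeR adjusted p = 0.827).

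Il12b (ENSMUSG00000004296), the p40 chain shared by IL-12 and IL-23, had 7, 45 and 75 reads (0.216, 1.38 and 1.86 CPM) in Control 3, 4 and 5, against 78, 61 and 69 reads (2.14, 1.76 and 1.93 CPM) in TSDP 1, 2 and 5. Control 3 stood 9.88-fold below the highest library, Control 4 lay under the TSDP tumours and Control 5 among them. The log2 fold change was 0.74 ± 0.67 (SE, 95% interval -0.87 to 2.35, edgeR adjusted p = 0.637), and without Control 3 it was 0.24. Control 3 was also the library with the lowest summed T cell (19.9 CPM), dendritic cell (34.4 CPM) and hepatocyte (105.2 CPM) markers. It was lowest as well for Kupffer cell (35.8 CPM), B cell (0.680 CPM), mast cell (6.30 CPM), fibroblast (3005 CPM) and tumour (943 CPM) markers. For macrophage, neutrophil and endothelial markers another library was lowest. The part of these cell types in the Il12b difference was not tested. Nearest patterns were sought among tested genes with a symbol and a mean of at least 1 CPM. Symbols made of Gm and digits or ending in Rik were left out. Among these genes, the pattern over the 6 libraries nearest to Il12b was that of Cxcl11, at a root mean square difference of 0.17 (log2 CPM, each gene centred on its own mean), with Bcl2l14 at 0.20 and Ubd at 0.22, where the spread of Il12b itself was 1.05.

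Ptgs2 and the colony-stimulating factors included the most abundant members. Ptgs2 (ENSMUSG00000032487), which encodes the inducible cyclooxygenase COX-2, had 66.2, 55.8 and 200.4 CPM in Control 3, 4 and 5, against 93.6, 107.8 and 125.9 CPM in TSDP 1, 2 and 5. Control 5 was 3.59-fold above Control 4, and the TSDP tumours lay between these extremes. The means of 107.5 CPM ± 80.6 and 109.1 CPM ± 16.2 (SD, n = 3 each) differed by 0.022 ± 0.49 (SE) on the log2 scale of edgeR (adjusted p = 0.987), with a 95% interval of -1.17 to 1.21. Without Control 5 it was 0.82 (edgeR adjusted p = 0.591, unadjusted p = 0.00577), and it was -0.25 without Control 3, -0.29 without Control 4 and -0.098 without TSDP 5. The summed level of 4 mast cell markers was 6.30, 18.8 and 106.3 CPM in Control 3, 4 and 5, against 31.5, 33.4 and 73.1 CPM in TSDP 1, 2 and 5, so Control 5 was highest and TSDP 5 next for these markers as for Ptgs2, and no mast cell marker was at 0. The part of mast cells in the Ptgs2 levels was not tested. The patterns nearest to Ptgs2 were those of Hsph1 (root mean square difference of 0.20), Abcb1a (0.24) and Gp1ba (0.24), against a spread of 0.60 for Ptgs2.

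**Figure D3:**
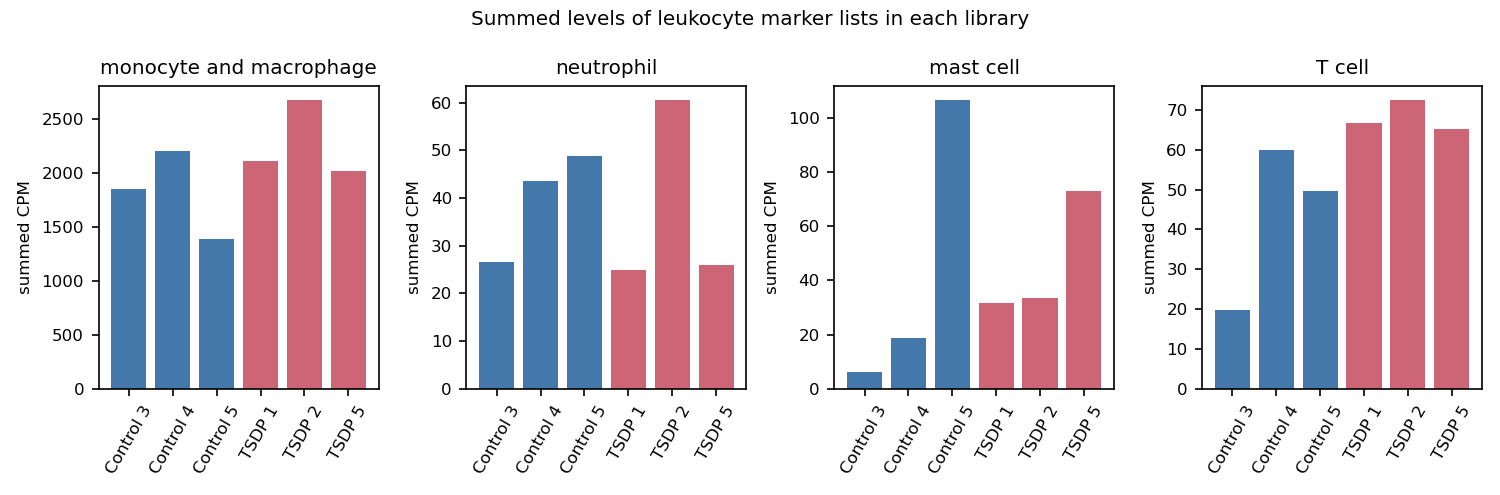
Summed CPM (linear axes from 0) of 11 monocyte and macrophage, 9 neutrophil, 4 mast cell and 6 T cell markers in each library, Control in blue and TSDP in red. Mast cell markers peak at 106.3 CPM in Control 5, T cell markers are lowest in Control 3 at 19.9 CPM, and macrophage markers are lowest in Control 5 at 1390.2 CPM.

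Csf2 (ENSMUSG00000018916), which encodes GM-CSF, a growth factor of granulocytes and macrophages, had 0.958, 1.35 and 4.996 CPM in Control 3, 4 and 5, against 7.39, 3.76 and 4.72 CPM in TSDP 1, 2 and 5. These levels rest on 31, 44 and 201 reads in the Control tumours and on 270, 130 and 169 reads in the TSDP tumours. As for Il1b, Control 3 and Control 4 were low and Control 5 was within the TSDP range. The log2 fold change, 1.11 ± 0.66 (SE, 95% interval -0.48 to 2.70, edgeR adjusted p = 0.488), was the largest of the 10, and it was 2.17 without Control 5 (edgeR adjusted p = 0.591, unadjusted p = 0.00328). Without Control 3 it was 0.71, and without Control 4 it was 0.82. Patterns nearest to Csf2 were those of Plet1 (root mean square difference of 0.33), Il1b itself (0.43) and Ccl22 (0.43), against a spread of 1.04. Csf1 (ENSMUSG00000014599), which encodes M-CSF, the survival factor of macrophages, had 131.2, 150.7 and 154.9 CPM in Control 3, 4 and 5, against 113.4, 146.9 and 139.9 CPM in TSDP 1, 2 and 5. It varied least, within 1.37-fold over all tumours, and its log2 fold change was -0.13 ± 0.14 (SE, 95% interval -0.47 to 0.21, edgeR adjusted p = 0.708). Nearest to Csf1 in pattern were Cd14 (0.038), Bsg (0.047) and Zc2hc1c (0.053), against a spread of 0.15.

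Among the other genes, likeness of pattern was closest for Il18, whose nearest genes were Wbp1l (root mean square difference of 0.034), Eif4ebp2 (0.037) and Ctss (0.045), the last encoding the lysosomal protease cathepsin S, against a spread of 0.28. Nearest to Il1rn were Rad9b (0.094), Nmnat2 (0.097) and Cd274 (0.10), which encodes the checkpoint ligand PD-L1, against a spread of 0.39. Cd274 itself had 36.7, 68.8 and 88.5 CPM in Control 3, 4 and 5, against 58.3, 80.6 and 59.8 CPM in TSDP 1, 2 and 5. All genes named as nearest were picked as the closest of many over 6 libraries. They show likeness only, and shared regulation was not tested. Nearest to Il1b were Hmgcll1 (0.32), Phlda1 (0.34) and Actg2 (0.34), to Tnf Tepsin (0.054), Stk39 (0.059) and Agrn (0.062), and to Il6 Usp2 (0.097), Drp2 (0.11) and Crybg3 (0.11), against spreads of 0.82, 0.16 and 0.29.

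For most of the genes the Control tumours spread more widely than the TSDP tumours. In 8 of 10 genes the SD of log2 CPM was larger in Control than in TSDP, and it was so in 54.3% of all genes tested. For Ptgs2 it was 1.00 against 0.21, for Il1b 1.04 against 0.20 and for Il12b 1.52 against 0.13, while Tnf (0.075 against 0.26) and Csf1 (0.13 against 0.20) were the exceptions. Control 5 was the highest library for 3 genes (Il1rn, Ptgs2 and Csf1) and the lowest for 2 (Il18 and Il6). TSDP 1 was likewise highest for 3 (Tnf, Il12b and Csf2). Control 3 was lowest for 3 (Il1rn, Il12b and Csf2), as was Control 4 (Il1a, Il1b and Ptgs2). Without Control 5, 4 of 10 (Il1a, Il1b, Ptgs2 and Csf2) had an unadjusted p under 0.05, all higher in TSDP, against 8.3% of all genes in that fit, and 0 passed after adjustment. Control 5 was the highest Control library for each of these 4 genes, so leaving it out lowers their Control means. The small unadjusted p-values of that fit follow in part from this choice and are not separate evidence of a difference. With each of the other 5 libraries left out in turn the count at an unadjusted p under 0.05 was 0 of 10, against 9.1% of all genes without Control 3, 19% without Control 4, 7.39% without TSDP 1, 8.43% without TSDP 2 and 13.3% without TSDP 5. Among the genes with the larger fold changes, Csf2 was at 0.71 without Control 3 and 0.79 without TSDP 1, Il1b at 0.48 and Il1a at 0.51 without Control 4, Il1a at 0.51 and Il18 at 0.23 without TSDP 2.

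**Figure D4:**
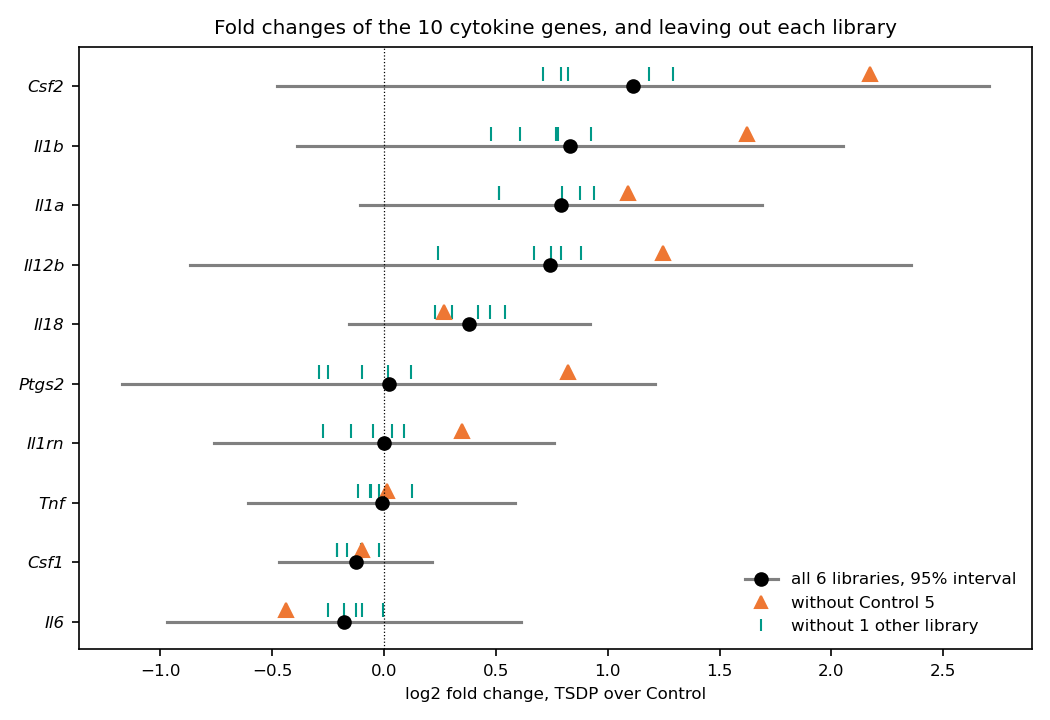
Log2 fold change (TSDP over Control, horizontal axis) of the 10 cytokine genes: black points with 95% intervals use all 6 libraries, orange triangles leave out Control 5, and green ticks leave out 1 of the other libraries. Every interval includes 0, and the triangles of Csf2 (2.17), Il1b (1.62) and Ptgs2 (0.82) lie apart from the ticks.

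Genes of the surrounding pathways were read from 8 lists, 107 genes in all, of which 103 were tested. By edgeR 0 were called, 6 were higher and 3 lower at an unadjusted p under 0.05 (8.6% and 4.75% of all genes tested), and the median log2 fold change was 0.060. DESeq2 called 2 of them, Il1rap and Rc3h1, a smaller share than the 3.38% it called of all genes, and limma-voom called 0. Of the 103 tested, 11 were higher and 4 lower in TSDP without overlap of the groups, against 13% and 8.76% of all genes tested. Positive log2 fold changes numbered 53, against 47.3% of all genes tested. These shares over all genes also stand beside the counts of each list below. With upper-quartile factors the median over all genes was -0.090 instead of -0.022, so signs of values near 0 depend on the scaling.

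Receptors and decoys had 15 of 19 positive log2 fold changes, with a median of 0.27, 0 called and 2 higher at an unadjusted p under 0.05. Il1rap, the co-receptor chain needed for IL-1 signalling, had 44.1, 40.0 and 59.7 CPM in Control 3, 4 and 5, against 72.6, 95.7 and 70.0 CPM in TSDP 1, 2 and 5. All TSDP tumours were above all Control tumours, with a log2 fold change of 0.73 (edgeR adjusted p = 0.326, DESeq2 adjusted p = 0.0498). Its pattern was the third nearest to that of Il1a (root mean square difference of 0.25), after Sgip1 (0.21) and Tal1 (0.22). Il1r1, the signalling IL-1 receptor, had 36.1, 83.5 and 35.4 CPM in the Control tumours against 55.5, 91.2 and 44.6 CPM in the TSDP tumours, and Il1r2, the decoy receptor, 2.01, 4.17 and 8.75 CPM against 8.27, 5.52 and 4.69 CPM. Csf1r, the M-CSF receptor of macrophages, had 138.7, 181 and 96.2 CPM in the Control tumours against 172.5, 228 and 149.3 CPM in the TSDP tumours (edgeR adjusted p = 0.53). Control 5, lowest for Csf1r, was also lowest for the macrophage markers at 1390.2 CPM, a sum that includes Csf1r, and it was high for Il1b and Ptgs2. The part of macrophages in the Il1b and Ptgs2 levels was not tested. Il6ra, the IL-6 receptor, had a log2 fold change of 0.13 and Il6st, the shared gp130 chain, one of -0.11.

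Related cytokines had 8 of 13 positive, with a median of 0.26, 0 called and 1 higher at an unadjusted p under 0.05. Ltb, the membrane lymphotoxin chain made by lymphocytes, had 0.927, 3.13 and 3.06 CPM in the Control tumours against 5.64, 6.59 and 4.19 CPM in the TSDP tumours, without overlap (log2 fold change 1.20, edgeR adjusted p = 0.371). The summed T cell markers did not overlap either, at 19.9 to 60.05 CPM in Control and 65.1 to 72.4 CPM in TSDP, and B cell markers at 0.680 to 1.20 and 2.33 to 5.52 CPM. Taken singly, 2 of 6 T cell markers and 3 of 4 B cell markers were higher without overlap, against 13% of all genes tested. The other markers of both lists overlapped. The part of T and B cells in the Ltb difference was not tested. Il34, the other ligand of the M-CSF receptor, had a log2 fold change of -0.32 (edgeR adjusted p = 0.568). Il12a, the chain that pairs with p40 to form IL-12, and Csf3, which encodes G-CSF, were too low to be tested, at no more than 0.231 and 0.0837 CPM.

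Inflammasome genes had 6 of 12 positive, with a median of 0.050 and 0 of 12 at an unadjusted p under 0.05. Nlrp3, the sensor that starts caspase-1 cutting, had 8.56, 8.68 and 8.53 CPM in the Control tumours against 10.1, 12.7 and 9.68 CPM in the TSDP tumours, without overlap (log2 fold change 0.33, edgeR adjusted p = 0.425). Casp1, the protease itself, had a log2 fold change of 0.17, and P2rx7, the ATP-gated channel upstream of Nlrp3, one of -0.21 (edgeR adjusted p = 0.459).

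Prostaglandin genes had 6 of 12 positive, with a median of 0.0090, 0 called, and 1 higher and 1 lower at an unadjusted p under 0.05. Ptges, the inducible prostaglandin E synthase that works after COX-2, had 6.64, 10.4 and 9.42 CPM in the Control tumours against 3.94, 6.99 and 3.91 CPM in the TSDP tumours (log2 fold change -0.83, edgeR adjusted p = 0.359). Hpgd, the enzyme that inactivates prostaglandins, had 0.185, 7.21 and 4.95 CPM in the Control tumours against 26.8, 44.2 and 17.9 CPM in the TSDP tumours, without overlap (log2 fold change 2.85, edgeR adjusted p = 0.353). The hepatocyte markers were likewise lowest in Control 3 and highest in TSDP 2, and their part in the Hpgd difference was not tested.

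Toll and IL-1 receptor signalling genes had 8 of 15 positive, with a median of 0.16 and 0 of 15 at an unadjusted p under 0.05. Tlr4 had 126.4, 81.3 and 110.8 CPM in the Control tumours against 79.4, 66.6 and 95.9 CPM in the TSDP tumours (log2 fold change -0.40, edgeR adjusted p = 0.449), and Myd88, the adaptor of these receptors, had a log2 fold change of 0.25 (edgeR adjusted p = 0.443). NF-kB and feedback genes had 5 of 15 positive, with a median of -0.047, 0 called and 1 higher at an unadjusted p under 0.05. Nfkbia and Tnfaip3, inhibitors that NF-kB itself induces, had log2 fold changes of -0.011 and -0.13. Nfkbie, another inhibitor, had 11.1, 18.1 and 18.9 CPM in the Control tumours against 23.7, 26.3 and 21.2 CPM in the TSDP tumours (log2 fold change 0.57, edgeR adjusted p = 0.371), and Nfkbiz, a co-activator of secondary targets such as Il6, 82.1, 80.7 and 114.1 CPM against 73.1, 77.0 and 69.8 CPM (log2 fold change -0.33, edgeR adjusted p = 0.42). Each was without overlap, in opposite directions.

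Proteins that bind cytokine mRNAs had 2 of 8 positive, with a median of -0.13, 0 called, and 1 higher and 2 lower at an unadjusted p under 0.05. Rc3h1, which encodes Roquin-1, a protein that brings cytokine mRNAs to decay through a stem-loop, had 104.8, 87.1 and 103.4 CPM in the Control tumours against 67.2, 65.3 and 69.5 CPM in the TSDP tumours. The groups did not overlap and each was tight, with a log2 fold change of -0.55 (edgeR adjusted p = 0.326, DESeq2 adjusted p = 0.0132). Zc3h12a, the endonuclease Regnase-1 that cuts Il6 and Il12b mRNAs, was also without overlap, at 23.3, 18.7 and 22.3 CPM in the Control tumours against 16.9, 13.9 and 16.0 CPM in the TSDP tumours (log2 fold change -0.46, edgeR adjusted p = 0.334, chosen after its values were seen). Zfp36l1, a relative of tristetraprolin that binds AU-rich elements like those printed above, went the other way, at 56.7, 64.4 and 65.8 CPM against 82.1, 84.6 and 80.5 CPM (log2 fold change 0.40, edgeR adjusted p = 0.326). Of the gp130 and STAT3 genes, 3 of 9 had positive log2 fold changes (median -0.081), with 0 of 9 at an unadjusted p under 0.05. Lifr, the LIF receptor, had 12.5, 57.6 and 26.2 CPM in the Control tumours against 54.4, 145 and 48.8 CPM in the TSDP tumours (log2 fold change 1.37, edgeR adjusted p = 0.421). The hepatocyte markers, too, were lowest in Control 3 and highest in TSDP 2, and their part in the Lifr difference was not tested. Pim1, a kinase gene that STAT3 induces, had a log2 fold change of -0.28 (edgeR adjusted p = 0.469).

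**Figure D5:**
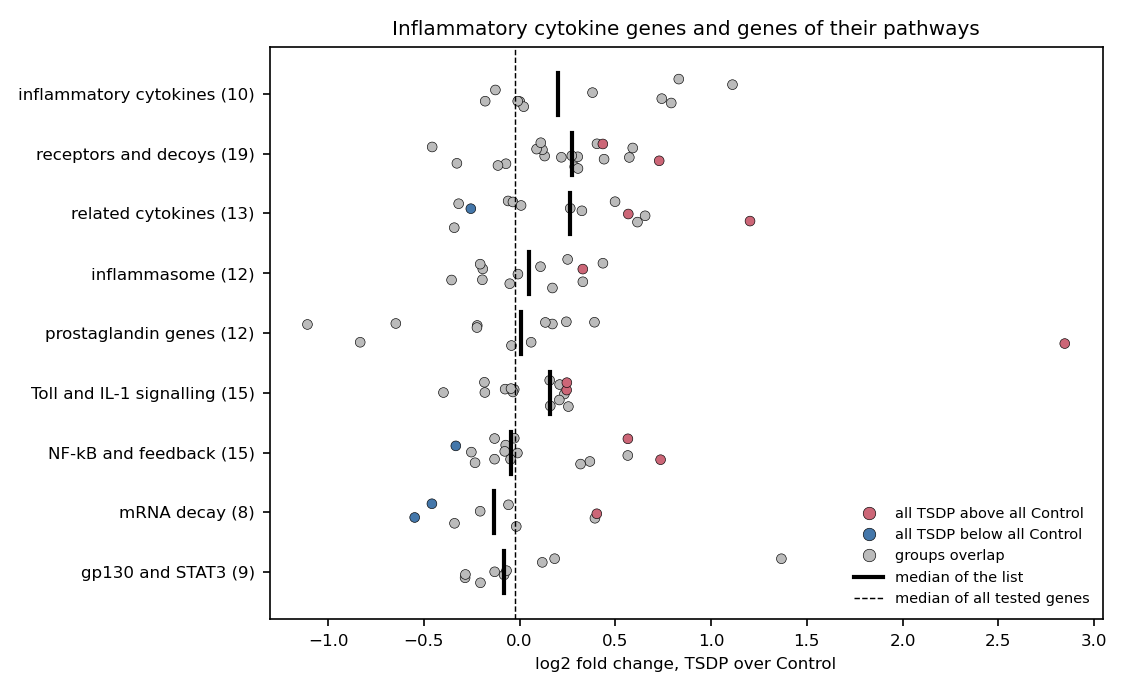
Log2 fold change (TSDP over Control, horizontal axis) of each tested gene in the cytokine list and 8 pathway lists (tested genes in brackets), with red and blue points for genes whose groups do not overlap, black bars for list medians and a dashed line for the median of all tested genes (-0.022). None of the 10 cytokine genes is coloured, and the largest value is that of Hpgd (2.85).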

How the data were processed

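RNA was sequenced from 6 tumours, 3 Control and 3 TSDP, grouped by sample title. Per the labels' protocols, RNA was purified on RNeasy columns and made into KAPA mRNA libraries. Trimmomatic 0.38, HISAT2 2.1.0 and featureCounts 2.0.0 are named in the submitters' processing notes. The sources used here do not give the build, annotation or strand setting. Genes that overlap on either strand may therefore share reads, and those of Csf2rb may be shared with a near-identical neighbour. Whole-number counts of 55536 genes, not normalized, make up the deposited count table. The second deposited table holds a normalized signal: each library's counts over a single scaling value (departing by at most 5.2e-15 in relative terms), and supplied the symbols only.

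edgeR 4.0.16 (R 4.3.3) tested 17423 genes by its quasi-likelihood functions (glmQLFit, glmQLFTest) after TMM scaling and a filterByExpr cutoff of 10 counts, with Benjamini-Hochberg adjustment at 0.05. The biological coefficient of variation was 34.9%. SE is the absolute log2 fold change over the root of F, and 95% intervals use its degrees of freedom. CPM uses TMM-scaled library sizes. TPM uses exon lengths of GENCODE M21, whose 55450 gene IDs are all in the table. DESeq2 1.42.0, limma 3.58.1, other scalings and filters, a hepatocyte covariate and leaving out each library were alternatives. The steps were tested on simulated data.

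The members and lists were chosen with earlier results of these data known. Named genes were the 10 members, the gene with the smallest p in each direction of each pathway list, 10 fixed pathway genes and the 3 genes nearest in pattern to each member, with Il12a, Csf3, Zc3h12a and the marker genes named after their values were seen.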

Additional observations from a re-analysis of the deposited data

How the results depend on the processing

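No paired analysis was possible because the groups share only replicate number 5. No cytokine gene was called under any alternative run. Counts of called genes were 0 in each direction except without the filter on low counts (1 higher gene) and in DESeq2 (547 higher and 73 lower genes, 2 of them in the pathway lists). Some fold changes turned sign, most of them close to 0 and Il12b from 0.74. Il1rn had a log2 fold change of -0.0077 with DESeq2 size factors, -0.074 with upper-quartile factors, -0.075 with library totals alone, -0.023 without the filter, -0.0045 with a minimum count of 50 and -0.0084 by DESeq2, and Ptgs2 -0.054 with upper-quartile factors and -0.050 with library totals. With the hepatocyte score as a covariate Il1rn was at -0.51, Ptgs2 -0.22, Il12b -0.46 and Il6 0.017. Leaving out 1 library at a time gave -0.27 to 0.35 for Il1rn, -0.29 to 0.82 for Ptgs2 and -0.12 to 0.13 for Tnf. The cause was not tested. With a minimum count of 50, Il6 was not fitted. Il6, Tnf and Il12b rest on 7 to 78 reads per library, and Csf2 on 31 and 44 reads in Control 3 and Control 4, which limits their precision.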
